A study of Mus musculus with 10 samples.

Results

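The genes described here are the 10 genes of a set that makes, packs, recycles, breaks down and senses acetylcholine in the nucleus accumbens (NAc). They were chosen by symbol: Chat, Slc18a3, Slc5a7, Ache, Chrm1, Chrm2, Chrm3, Chrm4, Chrna4 and Chrnb2. All 10 were present in the deposited table of 29883 genes, and each had at least 10 counts in every library. The table holds raw counts of RNA-seq reads from the NAc of male, ethanol-naïve mice that were 9 weeks old. Of these, 5 were C57BL/6J (B6) mice and 5 were DBA/2J (D2) mice, with 1 poly-A library for each mouse. Both are inbred strains, no treatment was given, and the strain was the only factor of the design. The comparison asked which genes differ in level between the strains before any ethanol.

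The striatum, of which the NAc is the ventral part, holds few cholinergic interneurons, but these large cells fill the tissue with acetylcholine. They make it with choline acetyltransferase (Chat), load it into vesicles with the vesicular transporter (Slc18a3), and take choline back up with the high-affinity choline transporter (Slc5a7), while acetylcholinesterase (Ache) ends the signal in the synaptic cleft. The receptors are of a slow, G-protein-coupled muscarinic kind (Chrm genes) and a fast, ion-channel nicotinic kind (Chrn genes). Striatal projection neurons carry the M1 receptor (Chrm1) and, on those of the direct pathway, the M4 receptor (Chrm4), whereas M2 (Chrm2) is known as an autoreceptor of cholinergic cells. The α4 and β2 subunits (Chrna4 and Chrnb2) together form the most common nicotinic receptor with high affinity in the brain.

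Chat and Slc18a3 lie in the arrangement known as the cholinergic gene locus. In GRCm39, Chat spans chromosome 14, positions 32129369 to 32187946, on the minus strand, and Slc18a3, a gene with a single annotated transcript, sits at 32184395 to 32186807 within that span and on the same strand. Their annotated exons share 0 bases. Slc5a7 is on chromosome 17, positions 54580020 to 54606076, on the minus strand. Stretches of the 250 bases upstream of the RefSeq starts of these genes are shown because the levels of all 3 moved together from mouse to mouse, as described below. Each is given 5′ to 3′ on the gene's own strand, and capitals mark GGGCGG or its reverse complement (a GC box) and TGACG or its reverse complement (the core of a cAMP response element). They come from RefSeq's table for GRCm38.p6 and were found once each in the GRCm39 chromosome, where the Chat stretch is chr14:32187947-32188116, that of Slc18a3 is chr14:32186808-32187057 and that of Slc5a7 is chr17:54606077-54606312. For Chat 170 and for Slc5a7 236 of the 250 bases are printed, without those next to the start that lie in an annotated exon.
Chat: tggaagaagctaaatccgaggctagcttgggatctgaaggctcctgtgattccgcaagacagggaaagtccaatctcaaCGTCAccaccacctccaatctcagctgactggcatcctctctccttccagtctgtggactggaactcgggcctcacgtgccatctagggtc
Slc18a3: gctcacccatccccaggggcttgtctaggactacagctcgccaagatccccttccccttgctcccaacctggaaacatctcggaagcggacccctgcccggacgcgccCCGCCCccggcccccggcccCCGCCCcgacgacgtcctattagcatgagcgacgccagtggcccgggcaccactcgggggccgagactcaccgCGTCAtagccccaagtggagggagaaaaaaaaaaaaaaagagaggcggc
Slc5a7: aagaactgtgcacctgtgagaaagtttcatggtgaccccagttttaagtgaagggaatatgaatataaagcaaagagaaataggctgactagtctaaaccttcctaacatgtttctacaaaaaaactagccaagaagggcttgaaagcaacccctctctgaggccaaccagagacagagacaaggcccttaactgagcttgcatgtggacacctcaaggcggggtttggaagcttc
In the full 250 bases before the start, searched on both strands, TGACG occurred 1 time in Chat, 1 time in Slc18a3 and 0 times in Slc5a7, and 17.9% of 32536 promoters of the same length held it. GGGCGG occurred 2 times in Slc18a3 and 0 times in Chat and Slc5a7 (33.0% of promoters held it). The motif TAATTA, which homeodomain factors such as LHX8 and ISL1 can bind, was found in none of the 9 genes with an entry in the promoter table (4.84% of promoters held it). The full element TGACGTCA was found in none of the 9 (1.56% of promoters). A match or its lack describes these letters only. No motif of these 4 was held by all 3 genes.

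Per length of their annotated exons, the genes fell into a wide range of levels. CPM per kb (the count scaled to library size and divided by exon length) is used here because only a scale per length allows one gene to be set against another. Chrm4 was the highest, at 46.3 ± 6.6 CPM per kb in B6 and 43.0 ± 4.6 in D2 (SD, n = 5 for each strain). It was followed by Chrm1 (22.8 ± 2.5 in B6 and 20.1 ± 1.3 in D2) and Ache (22.2 ± 4.6 and 26.3 ± 3.5), whose order was turned in D2. The receptors of projection neurons and the enzyme stood above the genes that define the interneurons. Chrnb2 came next with 8.65 ± 0.53 and 9.13 ± 0.58 CPM per kb, then Chrna4 with 6.04 ± 2.4 and 6.03 ± 0.32, and Slc5a7 with 5.33 ± 1.8 and 6.73 ± 1.0. Slc18a3 (3.51 ± 1.2 and 3.92 ± 0.82), Chrm3 (3.25 ± 0.99 and 2.93 ± 0.23) and Chat (2.94 ± 0.99 and 3.52 ± 0.6) were lower, and Chrm2 was the lowest at 1.99 ± 0.21 and 2.64 ± 0.52. In B6, only the steps from Chrm4 to Chrm1 and from Ache to Chrnb2 were wider than the SDs of both neighbours added together. By this measure, Slc5a7 and Chrna4 could not be placed apart in D2, nor could Slc18a3, Chat, Chrm3 and Chrm2. The lengths are those of all annotated exons, so a gene whose long transcripts are rarely used appears lower than it is.

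The libraries held between 96977262 and 116776714 counted reads, and striatal projection neuron markers were strong in all of them, with a summed level of 3610 to 4790 CPM in B6 and 3060 to 3730 in D2. B6 replicates 3 and 5 stood apart from the other B6 libraries. They were the most alike of all pairs within a strain, with a mean chi-square of 4.89 per gene against 17.5 to 118.9 for the other pairs, though further apart than sampling noise. The summed level of 5 markers of cortical projection neurons (among them Slc17a7, Tbr1, Neurod6 and Neurod2) was 922 and 934 CPM in these libraries, against 80.4, 73.5 and 158 in B6 replicates 1, 2 and 4. The D2 libraries lay between, at 212, 531, 574, 464 and 305 CPM, so no B6 library fell within the D2 range. For this reason, the strain comparison is given below for all 10 mice, with the cortical marker level as a covariate, and without B6 replicates 3 and 5. The last of these fits and the covariate were chosen after the values had been seen. In bulk tissue, fewer cells of a type cannot be told apart from less RNA per cell.

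Across all 10 mice, few of the cholinergic genes passed a test between the strains, and the B6 mice varied widely. Only Chrm2 passed the test, with a higher level in D2 (edgeR quasi-likelihood test, adjusted p = 0.034, Benjamini-Hochberg over 29883 genes), so 1 of the 10 genes was called. Of all genes, 18.3% were called, 8.5% as higher and 9.83% as lower in D2. The normalized counts of the strains overlapped for each of the 10 genes, whereas they did not overlap for 16.0% of all genes. Over the 10 genes, the median of the log2 fold changes (D2 against B6) was 0.12, beside 0.0036 over all genes. At an unadjusted p under 0.05, 2 of the 10 passed (Chrm1 and Chrm2).

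**Figure D1:**
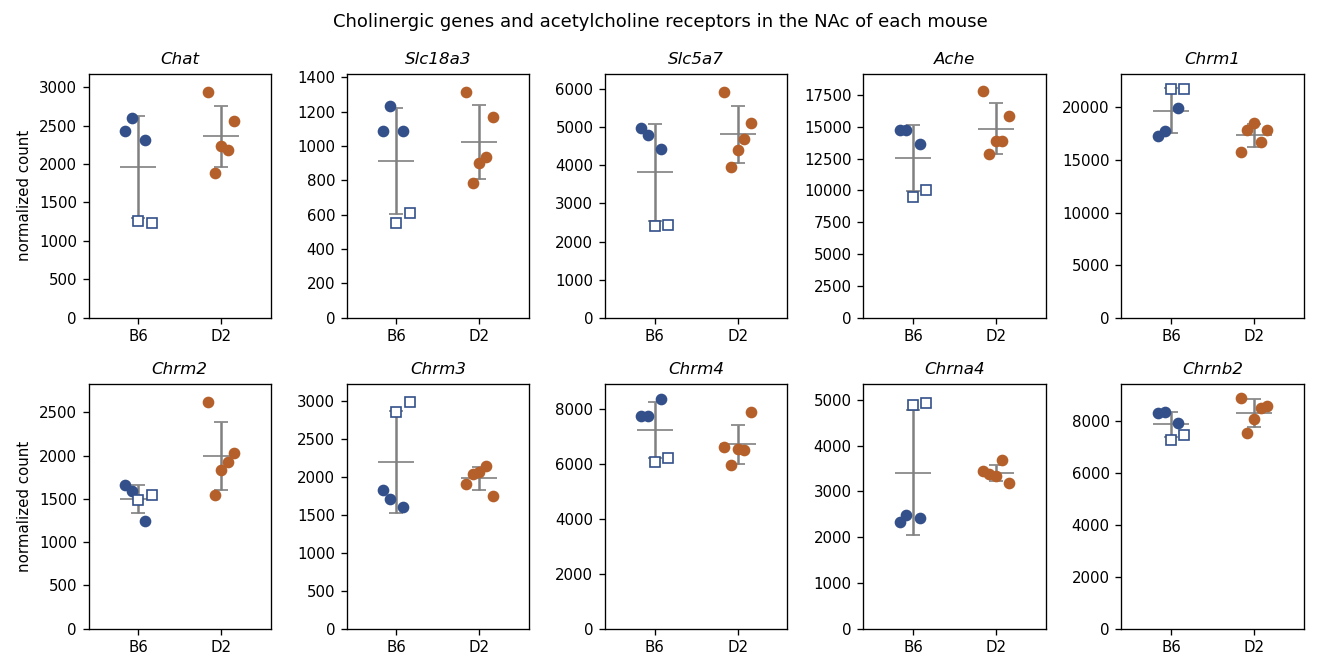
Normalized counts (raw counts scaled by TMM to a common library size) of the 10 genes in the NAc of each mouse, by strain. Each point is 1 mouse, horizontal bars are the mean and error bars the SD of 5 mice, and open squares are B6 replicates 3 and 5. The open squares are the lowest B6 points for Chat, Slc5a7 and Chrm4 and the highest for Chrm3 and Chrna4.

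Chat had 2430, 2598, 1254, 2307 and 1239 normalized counts in B6 replicates 1 to 5 and 2940, 1889, 2230, 2176 and 2555 in D2 replicates 1 to 5. The lowest of all 10 mice were B6 replicates 3 and 5, and the other B6 mice lay within the D2 range. Means of 1965 ± 665 for B6 and 2358 ± 402 for D2 (SD, n = 5) gave a log2 fold change of 0.26 (standard error, SE, 0.21) that was not called (edgeR adjusted p = 0.46).

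Slc18a3 had 1086, 1230, 551, 1089 and 611 normalized counts in the B6 mice, and 1315, 786, 903, 933 and 1168 in the D2 mice. The same pair of B6 mice was lowest, and the strains overlapped. Its log2 fold change was 0.16 (SE 0.22, edgeR adjusted p = 0.7). On the strand opposite to Slc18a3, the long non-coding RNA Litchi covers 75.3% of the exon bases of the gene. Since the strand setting of the counting is not given in the sources used here, reads of the pair may not be told apart, and how many reads of Slc18a3 this touches was not tested. Litchi had 35.5 ± 10.2 normalized counts in B6 and 49.9 ± 10.1 in D2 (SD, n = 5).

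Slc5a7 had 4972, 4807, 2417, 4441 and 2432 normalized counts in B6 and 5929, 3954, 4409, 4703 and 5100 in D2. Again, B6 replicates 3 and 5 were far below every other mouse. The log2 fold change of 0.34 (SE 0.20) was not called (edgeR adjusted p = 0.31).

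Ache is made by many neurons besides the cholinergic ones and lies on chromosome 5, positions 137285781 to 137292728, on the plus strand. It had 14733, 14779, 9502, 13616 and 10037 normalized counts in B6 and 17845, 12858, 13868, 13918 and 15809 in D2. The same mice were lowest here as well, though by a smaller factor, and the other B6 mice lay within the D2 range. The means of 12530 ± 2570 in B6 and 14860 ± 1980 in D2 gave a log2 fold change of 0.25 (SE 0.13) that was not called (edgeR adjusted p = 0.25). The long non-coding RNA Gm57304, which covers 5.78% of the exon bases of Ache from the other strand, was lower in D2 (log2 fold change −0.76, edgeR adjusted p = 2.9e-05).

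Among the muscarinic receptors, Chrm2 differed between the strains while Chrm1 came near the threshold. Chrm2 had 1663, 1585, 1481, 1240 and 1539 normalized counts in B6 and 2619, 1544, 1832, 1931 and 2031 in D2. Of the D2 mice, 4 lay above every B6 mouse, and D2 replicate 2 lay among the B6 mice. The means were 1502 ± 161 and 1992 ± 395 (SD, n = 5), a log2 fold change of 0.41 (SE 0.12), and a two-sided exact permutation test on the same values gave p = 0.024, where 0.0079 is the smallest value that 252 assignments of the mice can give. For this gene the libraries of B6 replicates 3 and 5 did not stand apart, with 1.01 times the mean level of B6 replicates 1, 2 and 4.

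The call of Chrm2 depended on single mice. It held in 4 of 10 fits with 1 mouse left out. The edgeR adjusted p was 0.067 without B6 replicate 3, 0.078 without B6 replicate 4, 0.059 without B6 replicate 5, 0.06 without D2 replicate 1, 0.057 without D2 replicate 4 and 0.069 without D2 replicate 5. The log2 fold change stayed between 0.29 and 0.49, with the lowest value in the fit without D2 replicate 1, the mouse with the highest level. DESeq2 gave the same fold change of 0.41 with an adjusted p of 0.008. Chrm2 lies on chromosome 6, positions 36364718 to 36505582 on the plus strand of GRCm39, and the RNA 9330158H04Rik covers 16.1% of its exon bases from the other strand. Of 9 tested genes within 1 Mb of it, 2 were called (22.2%), among them the nearest on the right, Ptn, a growth factor gene, which was lower in D2 (log2 fold change −0.27, edgeR adjusted p = 0.025). The nearest on the left, Gm43443, was not called (0.14, edgeR adjusted p = 0.82).

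Chrm1 (chromosome 19, positions 8640962 to 8662278, plus strand) had 17277, 17708, 21720, 19962 and 21696 normalized counts in B6 and 15737, 17885, 18467, 16722 and 17866 in D2. B6 replicates 3, 4 and 5 lay above all D2 mice, and the remaining B6 mice lay within the D2 range. The log2 fold change was −0.18 (SE 0.07), with an edgeR adjusted p of 0.097 that reached 0.032 without B6 replicate 1. Without B6 replicates 3 and 5 together, the log2 fold change was −0.08 (SE 0.06, edgeR adjusted p = 0.41).

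Chrm4 (chromosome 2, positions 91757594 to 91759033, plus strand) had 7734, 7726, 6040, 8334 and 6199 normalized counts in B6 and 6613, 5938, 6526, 6505 and 7879 in D2. The pair of B6 replicates 3 and 5 was lowest in its strain at 0.772 times the mean of the others, and D2 replicate 5 lay within the upper B6 range. The log2 fold change was −0.11 (SE 0.10, edgeR adjusted p = 0.52).

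Chrm3, which like Chrm1 signals through Gq, lies on chromosome 13, positions 9925522 to 10410883, on the minus strand. It had 1827, 1703, 2851, 1605 and 2991 normalized counts in B6 and 1908, 2035, 2060, 2148 and 1751 in D2. Here B6 replicates 3 and 5 were the highest of all mice, 1.71 times the mean of the other B6 mice. The D2 mice lay close together and overlapped the lower B6 mice. The log2 fold change was −0.15 (SE 0.16, edgeR adjusted p = 0.63).

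For the nicotinic subunits, Chrna4 lies on chromosome 2, positions 180660173 to 180685339, and Chrnb2 on chromosome 3, positions 89653502 to 89671953, both on the minus strand. Chrna4 had 2335, 2473, 4892, 2412 and 4940 normalized counts in B6 and 3443, 3389, 3330, 3680 and 3184 in D2. The mean level of B6 replicates 3 and 5 was 2.04 times that of the other B6 mice, the widest such split among the 10 genes, and every D2 mouse fell in the gap. The means were almost the same, 3410 ± 1380 in B6 and 3405 ± 182 in D2 (SD, n = 5), and the log2 fold change was −0.00 (SE 0.21, edgeR adjusted p = 1.0). No single B6 mouse lay near this mean.

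Its partner Chrnb2 varied little. It had 8343, 8372, 7296, 7952 and 7494 normalized counts in B6 and 8903, 7542, 8098, 8515 and 8602 in D2. The strains overlapped, and B6 replicates 3 and 5 were the lowest mice by a small margin, at 0.899 times the other B6 mice. The log2 fold change was 0.08 (SE 0.05, edgeR adjusted p = 0.37). The 3′ part of the gene Adar, which encodes an RNA-editing enzyme with a high level in these libraries, covers 16.2% of the exon bases of Chrnb2 from the other strand.

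These splits went with the cortical marker level. In the plot of levels against cortical markers, the mice with the highest marker sums, B6 replicates 3 and 5, had the lowest values of Chat and Slc5a7 and the highest values of Chrm3 and Chrna4. The ratio of B6 replicates 3 and 5 to the other B6 mice was 0.51 for Chat, 0.512 for Slc18a3, 0.512 for Slc5a7 and 0.68 for Ache. The part of the cortical markers in these differences was not tested.

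**Figure D2:**
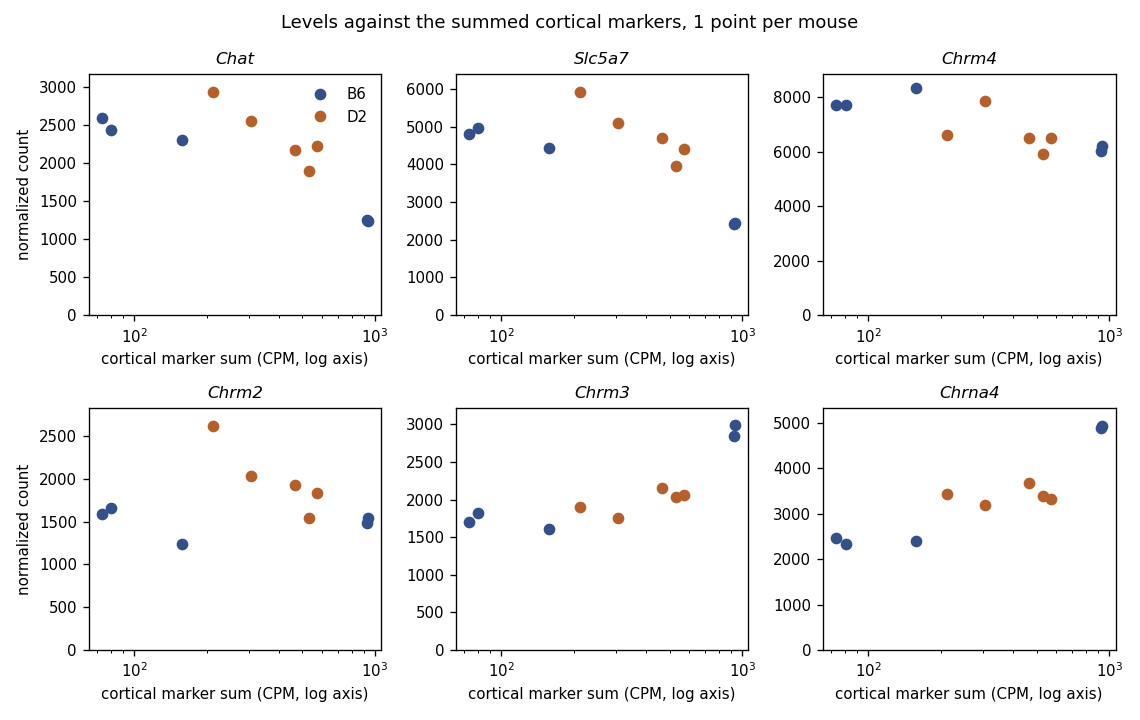
Normalized counts of 6 genes (y axis) against the summed level of 5 cortical projection neuron markers in CPM (x axis, log scale), with 1 point per mouse and colour giving the strain. The 2 rightmost B6 points, at 922 and 934 CPM, are B6 replicates 3 and 5, and the D2 mice lie at 212 to 574 CPM between them and the other B6 mice.

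The strain comparison changed with the way these libraries were treated. With the cortical marker level as a covariate, 8 of the 10 genes were called against 26.1% of all genes. Chat (log2 fold change 0.51, SE 0.06, edgeR adjusted p = 7.1e-06), Slc18a3 (0.40, SE 0.08, adjusted p = 0.0012), Slc5a7 (0.58, SE 0.05, adjusted p = 5.5e-07) and Ache (0.37, SE 0.04, adjusted p = 1.1e-05) were then higher in D2, as were Chrm2 and Chrnb2. Chrm1 (−0.23, SE 0.04, adjusted p = 0.00044) and Chrm3 (−0.23, SE 0.07, adjusted p = 0.02) were lower. This fit compares the strains at a marker level that no B6 mouse had, since the B6 mice lie on both sides of the D2 mice.

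Without B6 replicates 3 and 5, the picture was different. The differences of Chat (log2 fold change −0.05, SE 0.11), Slc18a3 (−0.15, SE 0.14), Slc5a7 (0.02, SE 0.10) and Ache (0.05, SE 0.09) were close to 0 and none was called (lowest edgeR adjusted p = 0.53). Here 2 of the 10 genes were called, against 19.2% of all genes. Chrna4 was higher in D2 (0.50, SE 0.05, edgeR adjusted p = 1.6e-05), and Chrm4 was lower (−0.25, SE 0.07, edgeR adjusted p = 0.031). Chrm2 kept its log2 fold change of 0.41 (SE 0.14) but was no longer called (edgeR adjusted p = 0.068), and that of Chrm3 turned to 0.21 (SE 0.07, adjusted p = 0.054). The cortical markers themselves were then higher in D2 for 5 of 5 genes. For Chrm2, the log2 fold change was 0.41, 0.43 and 0.41 in the 3 fits.

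**Figure D3:**
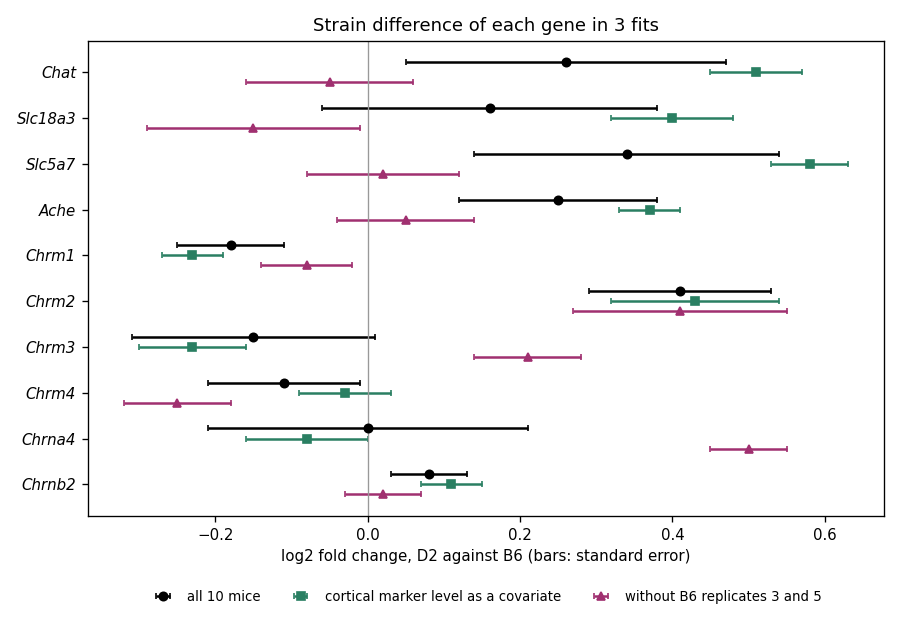
Log2 fold change of D2 against B6 for each gene (x axis) in 3 edgeR fits: all 10 mice, with the cortical marker level as a covariate, and without B6 replicates 3 and 5. Bars are standard errors, and the grey line marks no difference. Chat, Slc18a3, Slc5a7 and Ache lie to the right with the covariate and near 0 without the 2 libraries, while Chrna4 lies at 0.50 only in the fit without them.

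Ratios within a library do not depend on how libraries are scaled, and 6 were compared between the strains with two-sided exact permutation tests. Slc18a3 to Chat reads stood at 0.465 ± 0.0218 for B6 and 0.431 ± 0.0214 for D2 (SD, n = 5, exact p = 0.048, adjusted over the 6 ratios p = 0.14). That of Slc5a7 to Chat was 1.94 ± 0.0712 and 2.05 ± 0.0766 (exact p = 0.048, adjusted p = 0.14). Both passed at the raw p alone and not after adjustment, and in both the strains overlapped. B6 replicates 3 and 5 had ratios of 0.44 and 0.493 for Slc18a3 to Chat, the lowest and the highest of their strain, and of 1.93 and 1.96 for Slc5a7 to Chat. Ache to Chat was 6.67 ± 1.1 and 6.34 ± 0.288 (exact p = 0.57, adjusted p = 0.94).

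Among the receptors, no ratio passed. Chrm2 to Chat was 0.684, 0.61, 1.18, 0.538 and 1.24 in B6 and 0.891, 0.817, 0.822, 0.887 and 0.795 in D2 (exact permutation p = 0.79). The ratio of Chrna4 to Chrnb2, the subunits of 1 receptor type, was 0.28, 0.295, 0.671, 0.303 and 0.659 in B6 and 0.387, 0.449, 0.411, 0.432 and 0.37 in D2 (exact permutation p = 0.99). In both cases the D2 mice lay between B6 replicates 3 and 5 and the other B6 mice. Chrm1 to Chrm4 was 2.8 ± 0.683 and 2.61 ± 0.309 (SD, n = 5, exact p = 0.65).

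The profile of Chat over the 10 mice was closest to that of Slc5a7. Likeness was measured as the root mean square difference of log2 CPM after each gene was centred on its own mean, for the 15387 genes whose mean count reached 100, and its median was 0.417. Slc5a7 (0.061) was followed by Ecel1 (0.076), a metalloprotease gene, Slc10a4 (0.083), which encodes a transporter of cholinergic and aminergic synaptic vesicles, Slc18a3 (0.083) and Tshz2 (0.09), a zinc-finger homeobox gene. The glutamate transporter gene Slc17a8, used by cholinergic interneurons, stood at rank 7 (0.121), the homeobox gene Isl1 at rank 16 (0.14) and Ache at rank 27 (0.155). Not all identity genes of the cholinergic interneurons were close, since Lhx8 stood at rank 11176 (0.47), Ngfr at rank 14059 (0.612) and Gbx2 at rank 14644 (0.723). This measure also counts the size of a change, so a gene that moves with Chat by a larger factor is placed far from it. Lhx8 and Gbx2, like Chat, were lowest in B6 replicates 3 and 5 and highest in D2 replicate 1, whereas Ngfr was lowest in D2 replicate 2. Of the receptors, Chrnb2 at rank 1109 (0.326), Chrm4 at rank 1138 (0.327) and Chrm2 at rank 2391 (0.358) were closer than the median. Chrm1 at rank 13079 (0.534), Chrm3 at rank 14444 (0.673) and Chrna4 at rank 14649 (0.724) were further away. All 10 points share the split of the B6 libraries, so the order is a description of these mice.

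Of 10 identity genes of cholinergic interneurons, 0 were called in all 10 mice, against 18.3% of all genes. With the covariate, 9 were called as higher in D2, against 26.1% of all genes called in either direction. Without B6 replicates 3 and 5, 0 were called, against 19.2% of all genes. In all 10 mice, 3 of the identity genes (Zic4, Tacr1 and Drd5) had an unadjusted edgeR p under 0.05, and DESeq2 called these 3. Without B6 replicates 3 and 5, 1 of them (Isl1) had an unadjusted edgeR p under 0.05. Their median log2 fold change was 0.35, 0.54 and −0.03 in the 3 fits. All 10 had a lower mean in B6 replicates 3 and 5 than in the other B6 mice. The LIM homeobox gene Lhx8, which directs the cholinergic fate, had 2108, 2120, 409, 1230 and 482 normalized counts in B6 and 2731, 1211, 1444, 1685 and 1769 in D2. Gbx2, another homeobox gene of these cells, had 355, 338, 36.7, 208 and 56.6 in B6 and 502, 161, 231, 192 and 296 in D2. In B6 replicates 3 and 5 these developmental genes were further below the other B6 mice than Chat was, at 0.245 times for Lhx8 and 0.155 times for Gbx2. The septal and other basal forebrain markers, which mark regions next to the NAc that also hold cholinergic cells, summed to 68.0 and 67.8 CPM in B6 replicates 3 and 5, 95.7 to 116 CPM in the other B6 mice and 81.3 to 116 CPM in D2. Slc17a6 (1.07 times) and Trpc4 (1.08 times) of this list were not lower in B6 replicates 3 and 5, whereas Nts (0.336 times) and Zic1 (0.632 times) were. Striatal projection neuron genes ranged from 0.708 times (Penk) and 0.742 times (Tac1) to 0.965 times (Drd2), and the identity genes from 0.155 times (Gbx2) to 0.795 times (Drd5). Their part in the cholinergic values was not tested.

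**Figure D4:**
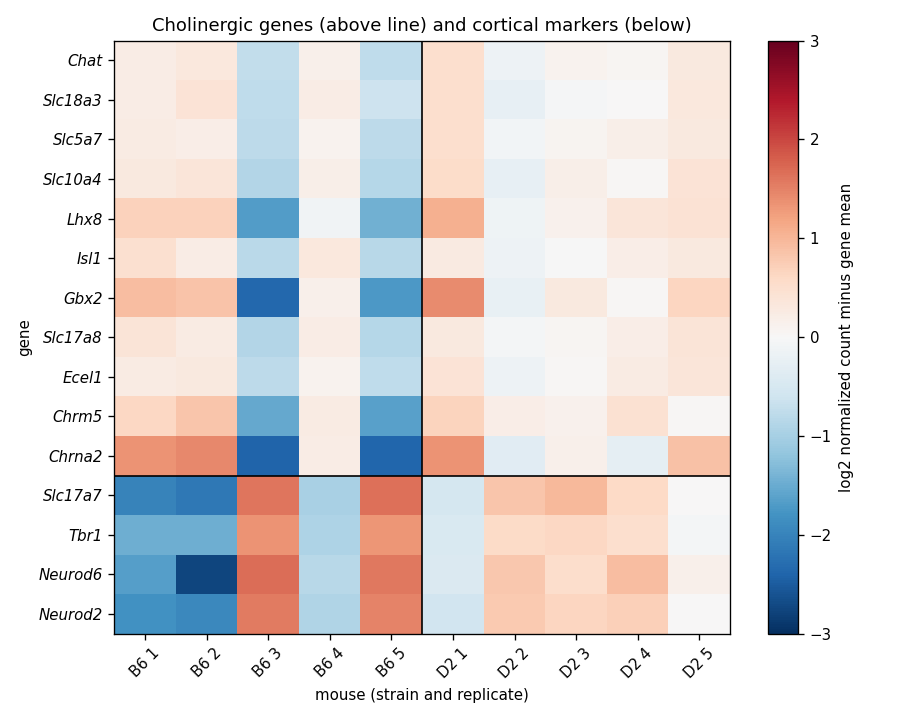
Log2 normalized count of cholinergic genes (above the line) and cortical markers (below) in each mouse, shown as the difference from the mean of the gene over the 10 mice (colour, red higher and blue lower). B6 replicates 3 and 5 are blue for the cholinergic genes and red for the cortical markers, and most of the D2 mice are paler in both.

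Among other receptor subunits, Chrna6 was higher and Chrna3 lower in D2, both at low counts. Of 15 further muscarinic and nicotinic subunit genes, 13 were in the table, and 1 was called as higher and 1 as lower in D2 (median log2 fold change 0.06). Of all genes, 8.5% were called as higher and 9.83% as lower. Chrna6, a subunit best known from dopamine neurons, had 16.4, 10.3, 12.6, 15.0 and 22.6 normalized counts in B6 and 90.8, 64.5, 64.2, 70.5 and 52.0 in D2. Every D2 mouse lay above every B6 mouse, the log2 fold change was 2.14 (SE 0.22, edgeR adjusted p = 1.8e-05), and it was 2.12 with the covariate and 2.29 without B6 replicates 3 and 5. Chrna3 was lower in D2, with 86.3 ± 11.1 normalized counts in B6 and 48.3 ± 14.4 in D2 (SD, n = 5) and no overlap (log2 fold change −0.84, SE 0.20, edgeR adjusted p = 0.011). It was −0.79 and −0.93 in the other fits, and called in both.

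Of these 13 genes, Chrna2 and Chrm5 showed the widest split by the ratio of B6 replicates 3 and 5 to the other B6 mice. Chrnb3, at low counts, went the other way, at 4.22 times the other B6 mice in B6 replicates 3 and 5. Chrna2 had 338, 366, 25.2, 157 and 25.7 normalized counts in B6 and 339, 105, 149, 111 and 248 in D2 (log2 fold change 0.06, SE 0.63, edgeR adjusted p = 0.97). With the covariate it was 1.41 and called (edgeR adjusted p = 3.5e-06), and without B6 replicates 3 and 5 it was −0.59 and not called (edgeR adjusted p = 0.32). Chrm5, the muscarinic receptor of dopamine neurons, was at 0.222 times the level of the other B6 mice in B6 replicates 3 and 5. It was not called in all 10 mice (0.26, SE 0.40, edgeR adjusted p = 0.74), was called with the covariate (0.95, edgeR adjusted p = 0.0002) and was not called without the 2 libraries (−0.27, edgeR adjusted p = 0.3). Chrna9 and Chrne had means below 10 counts, and the muscle subunits Chrnd and Chrng were not analysed here.

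Of 11 further genes of choline handling and cholinesterases, 1 was called, against 18.3% of all genes (median log2 fold change −0.03). Colq, which encodes the collagen tail that anchors acetylcholinesterase, had 66.6, 68.3, 75.6, 67.4 and 81.3 normalized counts in B6 and 33.9, 32.2, 39.7, 26.3 and 42.8 in D2. The strains did not overlap, and the log2 fold change of −1.04 (SE 0.16, edgeR adjusted p = 0.00038) was −1.06 with the covariate and −0.95 without B6 replicates 3 and 5. Prima1, which encodes the membrane anchor of the brain form of the enzyme, was not called.

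Of 7 accessory proteins of nicotinic receptors, 2 were called and both were lower in D2 (median −0.08). Of all genes, 9.83% were called as lower. Over the 41 genes of the other cholinergic lists, identity genes included, 5 were called, against 18.3% of all genes. Lypd1, a GPI-anchored protein that binds the receptors, had 16515, 15476, 10130, 15178 and 10129 normalized counts in B6 and 9520, 9021, 8394, 11277 and 10124 in D2. B6 replicates 3 and 5 lay within the D2 range and the other B6 mice above it (log2 fold change −0.48, SE 0.14, edgeR adjusted p = 0.03). It was −0.34 with the covariate and −0.70 without the 2 libraries, called in both. With 1 mouse left out, it stayed past the threshold in 3 of 10 fits and was lost without B6 replicate 1, 2 or 4 or D2 replicate 1, 2, 3 or 5 (highest adjusted p = 0.073). Tmem35a, which encodes the chaperone NACHO, differed little in size (−0.09, SE 0.03, edgeR adjusted p = 0.042) and was lost without B6 replicate 2 or 4 or D2 replicate 1, 2, 4 or 5 (highest adjusted p = 0.1), without B6 replicates 3 and 5 together (adjusted p = 0.059), with total counts (−0.06, adjusted p = 0.23) and with the replicate number as a block (adjusted p = 0.097).

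**Figure D5:**
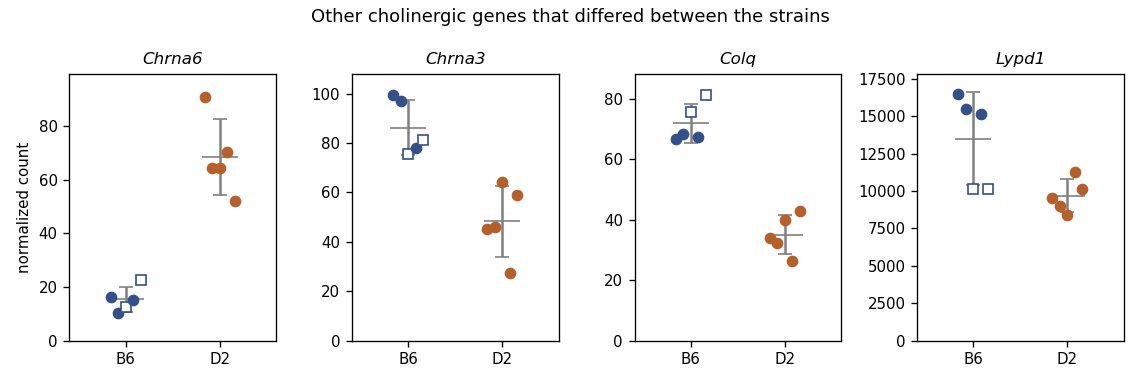
Normalized counts of 4 other cholinergic genes that were called between the strains, by strain, with 1 point per mouse. Horizontal bars are means and error bars SDs of 5 mice, and open squares are B6 replicates 3 and 5. The strains are apart for Chrna6, Chrna3 and Colq, and for Lypd1 the open squares lie at the level of the D2 mice.

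Markers of the other cells in the tissue were read in the same fit of all 10 mice. Of all genes, 18.3% were called in it, 8.5% as higher and 9.83% as lower in D2. Over the 41 markers of these lists, 14 were called. Of 8 striatal projection neuron markers, 5 were called as lower in D2, among them Penk (log2 fold change −0.52), Drd2 (−0.46), Adora2a (−0.39) and Rgs9 (−0.25). Penk, Drd2 and Adora2a mark the indirect pathway, whereas Drd1 and Tac1 of the direct pathway were not called (−0.06 and −0.02). Without B6 replicates 3 and 5, Drd1 (−0.17, edgeR adjusted p = 0.054) and Tac1 (−0.17, adjusted p = 0.17) were lower in D2 but not called. In that fit 8 of the 8 projection neuron markers had an unadjusted edgeR p under 0.05, and 6 were called as lower. Of 6 markers of GABAergic interneurons, Th was called as lower (−0.30). The septal list had 1 call (Trpc4, 0.36), the oligodendrocyte list 2 (Mobp, −0.57, and Mog, −0.41), the astrocyte list 3 (Gja1, 0.20, Aldh1l1, −0.24, and Aqp4, −0.19), the microglia list 1 (P2ry12, 0.26) and the cortical list 0 (edgeR; 0 of 5 also at an unadjusted p under 0.05 and with DESeq2). Of the blood and choroid plexus list, Folr1 was called, at 1.0 to 10.3 normalized counts in B6 and at most 0.9 in D2. Over the 41 markers, 19 were called without B6 replicates 3 and 5, and 21 with the covariate. Without the 2 libraries, calls were gained for Ppp1r1b (−0.31, edgeR adjusted p = 0.021), Npy (0.30, adjusted p = 0.03), Vip (1.17, adjusted p = 0.0013), Nts (−0.60, adjusted p = 0.016) and the 5 cortical markers. In the same fit, Mobp (−0.36, edgeR adjusted p = 0.084), Mog (−0.30, adjusted p = 0.063), Trpc4 (0.41, adjusted p = 0.054) and Aqp4 (−0.16, adjusted p = 0.1) lost their calls. This left 0 of 4 oligodendrocyte markers called against 4 of 4 with the covariate. In that fit without the 2 libraries, 2 of 4 oligodendrocyte markers had an unadjusted edgeR p under 0.05. Of all genes, 19.2% were called without the 2 libraries and 26.1% with the covariate. The part of these differences in the cholinergic values was not tested.

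Around the genes, the share of strain differences varied. Of the tested genes within 1 Mb, 2 of 35 were called for Chat (5.71%) and 2 of 33 for Slc18a3 (6.06%). These 2 windows are nearly the same, since Slc18a3 lies within Chat. The counts were 0 of 10 for Slc5a7 (0.0%), 1 of 22 for Chrm3 (4.55%), 9 of 52 for Chrm4 (17.3%) and 18 of 100 for Chrnb2 (18.0%). They were 10 of 54 for Chrm1 (18.5%), 14 of 73 for Chrna4 (19.2%) and 23 of 84 for Ache (27.4%), against 18.3% of all genes. These values describe the neighbourhoods and were not tested.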

How the data were processed

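NAc RNA from 5 B6 and 5 D2 male mice was sequenced as paired-end reads. After trimming with fastp, the authors aligned the reads of B6 and D2 alike to GRCm39, the B6 genome, with STAR 2.7.10b, handled the alignments with SAMtools 1.6 and counted per gene with featureCounts. Reads with D2 alleles can align less often to this genome, and their part in the values was not tested. The deposited values are these raw counts, without normalization, and the table no longer contained genes whose median was 0. The strand setting of the counting and whether mates were counted once are not given in the sources used here. The labels name Novogene as the maker of the libraries, whereas the methods name a university core. Depth was 96977262 to 116776714 counts per library, so a count is limited by the spread between mice rather than by sampling for all but the lowest genes. Columns of medians and means made by the authors were not used.

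Counts were normalized by TMM and fitted with edgeR 4.0.16 in R 4.3.3 (quasi-likelihood F test, two-sided, strain as the factor, Benjamini-Hochberg adjustment over 29883 genes, threshold 0.05). Standard errors were taken as the size of the log2 fold change over the root of its F statistic. Normalized counts are raw counts divided by the effective library size and multiplied by its mean. CPM per kb uses the merged exons of the GENCODE annotation of GRCm39, in which 29519 of the genes were found. Ratios of raw counts and single genes were compared with exact permutation tests over all 252 assignments of the mice. The cortical covariate was the mean log2 CPM of the 5 cortical markers, with no constant added. For the likeness of profiles, 0.01 was added to CPM before the log2. The steps were tested on simulated data. No pair of libraries of a strain was alike within sampling noise. Where nothing else is said, n is 5 mice per strain.

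The genes, lists and tests were chosen with earlier results of these data known. Genes named in the text were all 10 members, the called genes of each other list (at most 6, by size of change), list genes that were absent or lowest, the nearest tested gene on each side of a called member, and the 5 genes with the profile most like that of Chat, with the places of Slc18a3 and Slc5a7. Further genes (Drd1, Tac1, Ppp1r1b, Npy, Vip, Nts, Prima1, Chrm5, Chrna2, Chrnb3, Lhx8, Gbx2, Slc17a8, Isl1, Zic4, Tacr1, Drd5, Adar and the RNAs that overlap members) were named after their values had been seen. Some genes of the lists are not reported here by name. The alternatives were DESeq2 1.42.0, its size factors in edgeR, total counts, upper-quartile normalization, 2 filters on low counts, the replicate number as a block, a threshold of 0.01 and leaving out each mouse, with the cortical covariate and the fit without B6 replicates 3 and 5 added after the data had been seen.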

Additional observations from a re-analysis of the deposited data

Results flagged for a closer look

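Folr1, a folate receptor gene on the list of blood and choroid plexus markers, had 0.9 normalized counts in D2 replicate 4 and 0 in the other D2 libraries. The gap to the nearest library was 1.0 times the range of the group, above Dixon's critical value of 0.71 for 5 samples. It rests on 1 read. Of 58 groups of 5 libraries checked, this was the 1 that passed, and chance passes about 1 in 20 groups.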

How the results depend on the processing

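The number of called genes among the 10 was 1 in all 10 mice, with DESeq2, with its size factors, with total counts, with upper-quartile normalization and with both filters on low counts. It was 0 to 2 with 1 mouse left out, 0 at an adjusted p of 0.01, 8 with the cortical covariate and 2 without B6 replicates 3 and 5. For the other cholinergic lists, the 5 calls became 8 with DESeq2, 17 with the covariate, 2 at 0.01 and 3 to 5 with 1 mouse left out. Of all 29883 genes, 5478 were called, 3415 at 0.01, 6208 with DESeq2 and 7794 with the covariate. The 14 calls among cell type markers became 8 at 0.01, 19 without B6 replicates 3 and 5, and 21 with the covariate. The covariate moved these log2 fold changes past the threshold: Chat 0.51, Slc18a3 0.40, Slc5a7 0.58, Ache 0.37, Chrm1 −0.23, Chrm3 −0.23 and Chrnb2 0.11. Leaving out B6 replicates 3 and 5 turned Chat to −0.05, Slc18a3 to −0.15 and Chrm3 to 0.21, brought Chrm4 (−0.25) and Chrna4 (0.50) past the threshold and Chrm2 (0.41) below it, and turned the log2 ratio of Ache to Chat to 0.11 and that of Chrm1 to Chrm4 to 0.17. The cause was not tested. Chrna4, at −0.00 in all mice, was 0.04 with total counts and −0.11 to 0.16 with 1 mouse left out. The ranges with 1 mouse left out were −0.23 to −0.15 for Chrm1, 0.29 to 0.49 for Chrm2, and, for log2 ratios, −0.11 to 0.01 for Ache to Chat, −0.07 to 0.23 for Chrm2 to Chat, −0.15 to 0.02 for Chrm1 to Chrm4 and −0.13 to 0.19 for Chrna4 to Chrnb2. On a linear scale the differences of Chrm2 to Chat (−0.009) and Chrna4 to Chrnb2 (−0.032) changed sign. Among markers, Th, Trpc4, Mobp and Aqp4 lost their call in 4, 7, 1 and 6 of 10 fits with 1 mouse left out. Th and Trpc4 also lost it under the block (adjusted p = 0.062 and 0.11), Th and Aqp4 with total counts (0.055 and 0.069), and Trpc4 with a minimum of 10 counts in every library (0.05, rounded).

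The labels number the mice 1 to 5 in both strains, but same-numbered mice did not deviate together (correlations of 0.368, −0.407, 0.366, 0.033 and −0.29, and 2 of 10 libraries closest to their own number). With the replicate number as a block, 4731 genes and 2 of the 10 were called (Chrm1, −0.18, adjusted p = 0.036, and Chrm2, adjusted p = 0.025), and Chrna4 was 0.09.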
